A study of Mus musculus with 6 samples.

Results

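The genes described here are 10 members of the Jumonji C (JmjC) family of histone demethylases: Kdm2a, Kdm3a, Kdm4a, Kdm4b, Kdm4c, Kdm5b, Kdm5c, Kdm6a, Kdm6b and Kdm7a. They were chosen by name, as chromatin enzymes that need oxygen, some of them known targets of the hypoxia-inducible factors (HIF) and some carrying Tudor domains. All 10 were found among the 55487 genes of the files, and all 10 had enough counts to be tested, as did 15082 genes in all.

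JmjC demethylases remove methyl groups from lysines of histones. Their catalytic domain binds iron and uses oxygen and 2-oxoglutarate, a metabolite of the citric acid cycle, and releases succinate. The genes Kdm3a, Kdm4b, Kdm4c and Kdm6b are known to be transcribed more in hypoxia. The proteins of Kdm4a, Kdm4b and Kdm4c carry a double Tudor domain that reads methylated lysines. By contrast, the single Tudor domain of SMNDC1, the protein targeted in this study, reads methylated arginines.

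The RNA came from αTC1, marked WT (wild type) in all deposited columns, a cell line grown from a mouse tumour of pancreatic α cells (a glucagonoma), and was sequenced in 3 libraries treated with an inhibitor of SMNDC1 and 3 libraries treated with the solvent DMSO. The labels spell the inhibitor G786-1089, and it was taken to be compound 1 of the study. They give no dose, no duration and no strain or age, and nothing in them says that the libraries of a treatment came from separate cultures, so that p-values measure only the spread between these libraries. Libraries are named here by the letters A, B and C of the deposited columns, since the labels number their replicates and do not tie a number to a letter. Every compound 1 library (70150880 to 94747943 counts) was deeper than every DMSO library (59070705 to 69480568 counts).

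The α cell identity was checked on marker genes. The glucagon gene Gcg took 1.9% to 2.11% of all counts with DMSO and 0.299% to 0.384% with compound 1. The β cell genes Ins1 and Pdx1, the δ and PP cell genes Sst, Hhex and Ppy, and the acinar genes Cpa1 and Cel had 0 counts in all 6 libraries. The summed level of 6 acinar and duct markers nevertheless ran from 14 to 22.6 FPKM (a level per kilobase and per sequencing depth) with compound 1 and from 5.18 to 12.4 FPKM with DMSO. Most of it came from Cela1, and its part in the results below was not tested. Summed levels of β cell markers (1.42 to 3.47 against 2.75 to 4.82 FPKM) and of immune markers (5.85 to 14.1 against 4.28 to 6.25 FPKM) overlapped between treatments, and endothelial and stromal markers summed to at most 0.406 FPKM. The targeted gene Smndc1 is no check of a drug that acts on the protein; its level was 3.8 ± 2.42 CPM (counts divided by scaled library size) with compound 1 and 2.12 ± 0.575 CPM with DMSO (SD, n = 3 each), and the groups overlapped.

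Expression of 2 of the 10 demethylase genes, Kdm3a and Kdm4b, rose with compound 1, and 0 fell (edgeR quasi-likelihood test, Benjamini-Hochberg adjusted p under 0.05 over all genes tested). Of all tested genes, 6.98% were called higher and 7.8% lower by this rule. At an unadjusted p under 0.05, 4 members were higher and 0 lower. No share of all tested genes is given for this looser rule, so its counts have no background here. DESeq2 called 4 higher and 0 lower, and limma-trend on the FPKM values 2 and 0, of 4 members above its minimum level. Of all genes tested by each tool, DESeq2 called 9.13% higher (of 23783) and limma-trend with pseudocount 1 called 12.5% higher (of 10610). The same backgrounds and the same minimum level hold for the counts of the other gene lists below. The filter stated by the study (adjusted p no higher than 0.1, log2 fold change of 1 or more in size) also took in Kdm2a, giving 3 members, where 6.25% of all tested genes passed it as higher. Every compound 1 library lay above every DMSO library for 4 members, Kdm2a, Kdm3a, Kdm4b and Kdm6b, against 18.2% of all tested genes. The log2 fold change was above 0 for 9 of the 10 members, with a median of 0.43 and a range from -0.66 to 2.04. The median over all tested genes was 0.041.

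**Figure D1:**
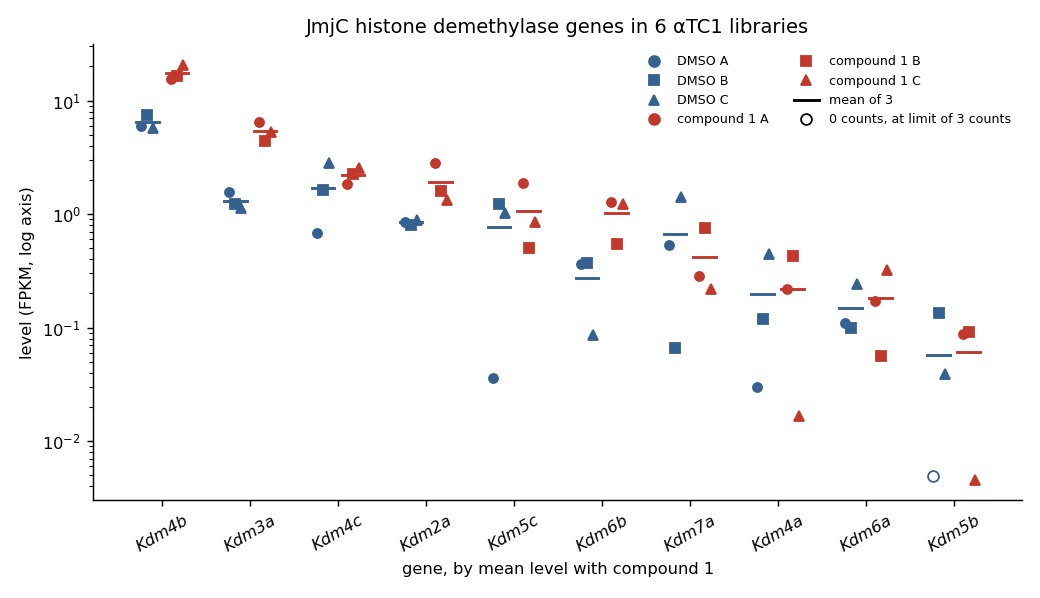
Level of each of the 10 genes in FPKM on a log axis, with a symbol for each library (A circle, B square, C triangle; DMSO blue, compound 1 red) and a line at the mean of 3 libraries. Kdm4b, Kdm3a, Kdm2a and Kdm6b have their 3 compound 1 libraries above their 3 DMSO libraries; the open circle is Kdm5b in DMSO library A, with 0 counts, drawn at the level of 3 counts (0.00492 FPKM).

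Among the members, 5 encode enzymes that act on lysine 9 of histone H3 (H3K9), a residue whose methylation marks silent chromatin, and both called genes belong to these. Kdm3a (ENSMUSG00000053470, chromosome 6 from 71588972 to 71632990 on the minus strand of GRCm38) encodes an eraser of mono- and dimethylated H3K9. Its level was 35.4, 23.8 and 29.2 CPM in compound 1 libraries A, B and C and 8.61, 6.68 and 6.16 CPM in the DMSO libraries. The lowest compound 1 library was thus well above the highest DMSO library. The mean went from 7.15 ± 1.29 CPM with DMSO to 29.5 ± 5.82 CPM with compound 1 (SD, n = 3 each), a 4.12-fold difference. On the log2 scale this was 2.04, with a standard error of 0.26 and a 95% confidence interval from 1.42 to 2.66 (edgeR adjusted p = 0.004). It was the largest among the 10 members in this fit, but Kdm6b passed it without DMSO library B (2.19 against 1.99) or compound 1 library B (2.21 against 2.18).

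Kdm4b (ENSMUSG00000024201, chromosome 17 from 56326062 to 56402870 on the plus strand) encodes an eraser of trimethylated H3K9. Its level was 77.2, 82.3 and 104.0 CPM in compound 1 libraries A, B and C and 30.1, 37.4 and 28.6 CPM in the DMSO libraries. All 3 libraries of one treatment were again apart from those of the other. The mean went from 32 ± 4.71 CPM to 87.7 ± 14.1 CPM (SD, n = 3 each), and the log2 fold change was 1.45 (standard error 0.18, 95% confidence interval 1.02 to 1.89, edgeR adjusted p = 0.00369). Kdm4b had the smallest p of the 10 members, at place 447 of the 15082 tested genes, and Kdm3a came next at place 468.

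The promoter of Kdm3a is shown because this gene had the largest fold change among the members in the edgeR fit to all libraries, and that of Kdm4c because its downstream start holds the most matches to the core of the site bound by HIF. Windows were the 250 bases before each RefSeq start (GRCm38.p6), and 7 of the 10 members had at least 1 window, 10 windows in all. Kdm2a, Kdm4b and Kdm6b had no entry in the table. The motifs ACGTG and GCGTG were searched on both strands, and the palindrome CACGTG counts as a match on each strand. Of the 32851 windows of all genes, 38.6% held at least 1 match and 16.7% at least 2, and 6.02% held CACGTG. The Kdm3a run below is the part of its first window that lies upstream of every annotated exon (chr6:71632991-71633167, minus strand, 177 bases), with 0 matches; GCGTG occurs 1 time nearer the RefSeq start, in bases that GENCODE places in an exon. The Kdm4c run (chr4:74251629-74251878, plus strand) lies before a start inside the gene and holds 6 matches, 4 of them from 2 copies of CACGTG. Capitals mark matches.
Kdm3a: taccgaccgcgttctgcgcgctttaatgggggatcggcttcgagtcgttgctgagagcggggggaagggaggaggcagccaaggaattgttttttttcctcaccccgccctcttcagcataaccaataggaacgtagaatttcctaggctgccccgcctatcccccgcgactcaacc
Kdm4c: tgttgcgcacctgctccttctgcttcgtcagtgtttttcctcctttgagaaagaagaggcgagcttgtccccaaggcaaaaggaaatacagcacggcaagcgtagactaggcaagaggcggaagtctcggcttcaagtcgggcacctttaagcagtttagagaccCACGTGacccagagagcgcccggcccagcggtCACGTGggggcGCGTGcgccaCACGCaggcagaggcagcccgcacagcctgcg
The other Kdm4c start, the other Kdm3a windows and those of Kdm4a and Kdm5c had 0 matches. Those of Kdm5b and Kdm7a had 2 each and that of Kdm6a had 3. A match describes the letters of a window and was not tested as a binding site, and Kdm4c, with the most matches, was not called.

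Kdm4c (ENSMUSG00000028397, chromosome 4 from 74242497 to 74405860, plus strand) belongs to the same subfamily as Kdm4b. Its level was 8.78, 10.6 and 12.0 CPM with compound 1 and 3.22, 7.68 and 13.3 CPM with DMSO. DMSO library C was the highest of the 6 and DMSO library A the lowest, so the groups overlapped. The log2 fold change was 0.37 (95% confidence interval -0.86 to 1.6, edgeR adjusted p = 0.709) and fell to -0.01 without DMSO library A. Kdm4a (ENSMUSG00000033326, chromosome 4 from 118136957 to 118180043, minus strand) had 1.20, 2.33 and 0.0922 CPM with compound 1 and 0.164, 0.662 and 2.47 CPM with DMSO. Each treatment held 1 library above 2 CPM and 1 below 0.2 CPM. Its log2 fold change of 0.14 therefore came with an interval from -2.97 to 3.25 (edgeR adjusted p = 0.96), and its sign turned without compound 1 library B (-0.76) and without DMSO library A (-0.38) or B (-0.13).

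Kdm7a (ENSMUSG00000042599, chromosome 6 from 39136623 to 39206789, minus strand) encodes an eraser of dimethylated H3K9 and H3K27 and was the 1 member with a negative log2 fold change, -0.66 (95% confidence interval -3.07 to 1.74, edgeR adjusted p = 0.737). Its level was 3.00, 7.86 and 2.28 CPM with compound 1 and 5.51, 0.693 and 14.6 CPM with DMSO. The DMSO libraries held both the lowest and the highest value, and without DMSO library C the log2 fold change was 0.49. Of its exon bases, 2.85% overlap 4930599N23Rik on the other strand, whose reads the counts do not separate.

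Kdm2a (ENSMUSG00000054611, chromosome 19 from 4314419 to 4398285, minus strand) encodes an eraser of dimethylated H3K36 that binds unmethylated CpG islands. Its level was 30.2, 16.9 and 14.3 CPM in compound 1 libraries A, B and C and 9.04, 8.51 and 9.38 CPM with DMSO. The DMSO libraries lay close together, and compound 1 library A stood well above B and C. The log2 fold change was 1.19 (standard error 0.34, 95% confidence interval 0.39 to 1.99), and with an edgeR adjusted p = 0.0619 it missed the threshold of 0.05. DESeq2 called it (adjusted p = 0.00359), as did edgeR with library sizes only (0.0343) or with at least 10 counts in every library (0.0425). Offsets for gene length took the log2 fold change to 0.85 (adjusted p = 0.151). Runs of 100 to 132 bases of its exons, at 95% identity or more, are shared with transcripts of at least 136 other genes, and reads from them may not be told apart.

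Besides Kdm7a, Kdm6a and Kdm6b belong to the genes for erasers of methylated H3K27, the mark set by Polycomb repressive complex 2. Kdm6b (ENSMUSG00000018476, chromosome 11 from 69398508 to 69413675, minus strand), the form known to respond to stress and inflammatory signals, had 9.40, 3.95 and 8.91 CPM with compound 1 and 2.61, 2.69 and 0.626 CPM with DMSO. The groups did not overlap, but compound 1 library B was nearer to DMSO libraries A and B than to the other compound 1 libraries. At 1.91, the log2 fold change had an interval from 0.29 to 3.52 (standard error 0.68), and the edgeR adjusted p = 0.118 did not pass; in DESeq2 it was 0.0239. Of its exon bases, 4.11% overlap Kdm6bos on the other strand. Kdm6a (ENSMUSG00000037369, X chromosome from 18162575 to 18279936, plus strand) had 1.11, 0.359 and 2.10 CPM with compound 1 and 0.707, 0.646 and 1.55 CPM with DMSO. The groups overlapped, with a log2 fold change of 0.30 (95% confidence interval -1.67 to 2.27, edgeR adjusted p = 0.859) that turned to -0.39 without compound 1 library C.

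Kdm5b and Kdm5c encode erasers of methylated H3K4, a mark of active promoters. Kdm5c (ENSMUSG00000025332, X chromosome from 152233020 to 152274535, plus strand) had 13.7, 3.65 and 6.18 CPM with compound 1 and 0.263, 9.02 and 7.47 CPM with DMSO. DMSO library A, with 16 counts, was far below the other 5 libraries, and the log2 fold change of 0.49 (95% confidence interval -2.11 to 3.08, edgeR adjusted p = 0.823) became -0.08 without it and -0.18 without compound 1 library A. Kdm5b (ENSMUSG00000042207, chromosome 1 from 134560171 to 134635285, plus strand) was at 0.882, 0.919 and 0.0461 CPM with compound 1 and at 0, 1.35 and 0.386 CPM with DMSO. A count of 0 in DMSO library A allows a level of up to 0.0493 CPM (3 counts). The log2 fold change of 0.084 had an interval from -3.95 to 4.12 (edgeR adjusted p = 0.983), and its sign turned in 4 of the 6 fits with 1 library left out (compound 1 A or B, DMSO A or C; -0.15 to -0.51).

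**Figure D2:**
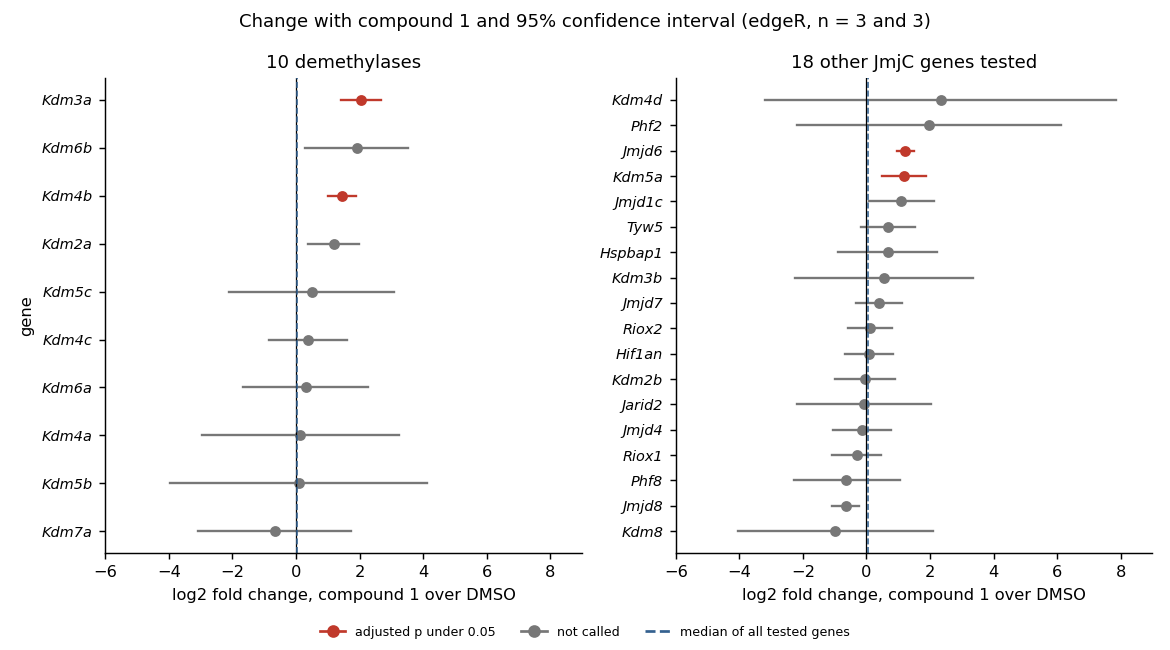
Log2 fold change of compound 1 over DMSO (points) with its 95% confidence interval (lines) from edgeR, for the 10 demethylase genes (left) and the 18 other JmjC genes tested (right); red marks an adjusted p under 0.05, and the dashed line is the median of all tested genes, 0.041. Kdm3a and Kdm4b are red on the left, Jmjd6 and Kdm5a on the right, and the intervals of 6 of the 10 demethylase genes span 0.

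Levels were compared between genes per kilobase, in FPKM. With DMSO, Kdm4b was highest at 6.43 ± 0.932 FPKM, with no overlap with the next gene, Kdm4c, at 1.71 ± 1.08 FPKM (SD, n = 3 each). Kdm4c overlapped Kdm3a (1.31 ± 0.236 FPKM), which lay above Kdm2a (0.849 ± 0.0434 FPKM) in every library. From Kdm2a down to Kdm5c, Kdm7a, Kdm6b, Kdm4a, Kdm6a and Kdm5b (0.0579 ± 0.0695 FPKM), each gene overlapped the next. With compound 1, Kdm4b (17.6 ± 2.78 FPKM) and Kdm3a (5.39 ± 1.04 FPKM) came first and second, each apart from the next gene. Kdm4c (2.21 ± 0.342 FPKM) and Kdm2a (1.93 ± 0.798 FPKM) followed and overlapped.

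Summed over the 10 members, the level was 30.5, 27.2 and 32.5 FPKM in compound 1 libraries A, B and C and 10.2, 13.2 and 13.9 FPKM with DMSO. Kdm4b alone made up 50.5% to 63.6% of this sum with compound 1 and 41.5% to 59.1% with DMSO. Kdm3a took 16.1% to 21.2% with compound 1 and 8.18% to 15.5% with DMSO. Kdm4c took 6.07% to 8.25% with compound 1 and 6.68% to 20.4% with DMSO, more than Kdm3a in DMSO libraries B and C. The 5 genes with an enzyme for H3K9 summed to 25.8 ± 2.59 FPKM with compound 1 and 10.3 ± 1.37 FPKM with DMSO, and the groups did not overlap. Most of this sum was Kdm4b (17.6 and 6.43 FPKM) and Kdm3a (5.39 and 1.31 FPKM), the 2 genes already called. Kdm4a, Kdm4c and Kdm7a were not called, so the sum does not describe a rise of all 5. The genes for H3K27 (Kdm6a, Kdm6b and Kdm7a) summed to 1.62 ± 0.227 against 1.09 ± 0.604 FPKM and overlapped (1.36 to 1.76 against 0.537 to 1.73 in single libraries). Without Kdm7a, the 1 member with a negative log2 fold change, they did not overlap, at 0.604 to 1.55 against 0.326 to 0.471 FPKM. Most of this smaller sum with compound 1 (mean 1.2 FPKM) was Kdm6b (1.02 FPKM), which was not called in edgeR. The genes for H3K4 overlapped, at 1.14 ± 0.723 against 0.827 ± 0.702 FPKM. In bulk RNA, more cells that express a gene and more of its RNA per cell cannot be told apart.

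The spread between libraries was far above counting error for most members. For Kdm4b, the coefficient of variation (SD over mean) of CPM was 16.1% with compound 1 and 14.7% with DMSO, where counting alone gives 1.14% and 2.27%. For Kdm4a it was 92.5% and 110.0%, against 9.52% and 12.7% from counting. For Kdm5c it was 66.4% and 83.7%, against 3.95% and 5.46%. Kdm2a with DMSO was an exception, at 4.89% against 4.31%. Libraries were made by Smart-seq2 from low input, with amplification of cDNA, and 78.1% of all counts from 1 to 10 were even numbers, so a count is not always 1 independent fragment and the counting values are lower limits. Among tested genes at an average log2 CPM of at most 1, where Kdm4a, Kdm5b and Kdm6a lie, the median standard error of a log2 fold change was 1.04 and 1.79% were called higher. Between 3 and 5, where Kdm2a, Kdm3a and Kdm4c lie, it was 0.33 and 8.5% were called higher, and between 5 and 7, where Kdm4b lies, 0.19 and 14.1%. Changes of the lowest members were therefore not detectable with these libraries unless large.

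Ratios of related genes within a library do not depend on the scaling between libraries. The log2 ratio of Kdm6b to Kdm6a counts was 3.07, 3.44 and 2.08 in compound 1 libraries A, B and C and 1.87, 2.05 and -1.29 with DMSO. The groups did not overlap, but compound 1 library C (2.08) and DMSO library B (2.05) nearly met. The difference in means was 1.99 (two-sided exact permutation p = 0.1, the smallest that 3 against 3 libraries allow, adjusted p = 0.4 over 6 ratios), and it was 0.91 without DMSO library C. The ratios of Kdm3a to Kdm3b (difference 1.97, exact permutation p = 0.2), Kdm2a to Kdm2b (1.12, p = 0.2), Kdm4b to Kdm4a (1.47, p = 0.5), Kdm4c to Kdm4a (0.60, p = 0.9) and Kdm5b to Kdm5c (-0.27, p = 1) overlapped between treatments. Compound 1 library C, with 8 counts of Kdm4a, set the sign of both Kdm4a ratios: without it they were -0.026 for Kdm4b and -0.87 for Kdm4c. The Kdm3a to Kdm3b difference was 1.15 without the same library, and 3.03 without DMSO library A.

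**Figure D3:**
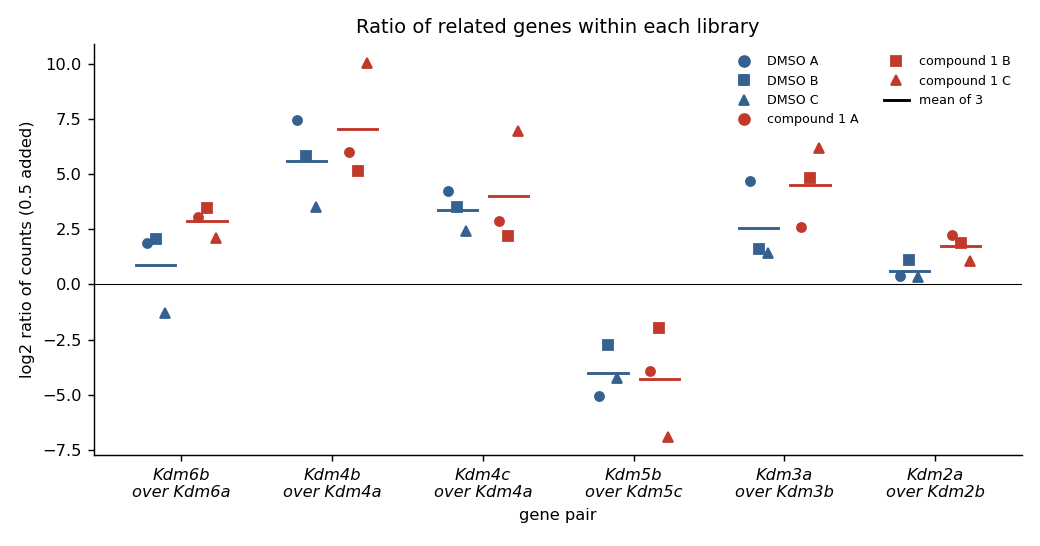
Log2 ratio of counts (0.5 added to each) of 6 pairs of related genes within each library, with symbols and colours by library and treatment and a line at the mean of 3 libraries. Of the 6 pairs, Kdm6b over Kdm6a has all compound 1 libraries above all DMSO libraries, the lowest at 2.08 against 2.05; the other 5 pairs overlap.

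Of 21 other genes with a JmjC domain, 18 could be tested, 2 rose and 0 fell in edgeR, with a median log2 fold change of 0.25. At an unadjusted p under 0.05, 3 were higher and 1 lower; DESeq2 and limma-trend each called 2 higher and 1 lower, the last being Jmjd8 (log2 fold change -0.65, edgeR adjusted p = 0.0606). Jmjd6, which encodes a lysyl hydroxylase of splicing factors, went from 60.2 ± 4.98 CPM with DMSO to 140 ± 3.72 CPM with compound 1 (SD, n = 3 each), a log2 fold change of 1.22 (standard error 0.11, edgeR adjusted p = 0.00113). Kdm5a, another eraser of methylated H3K4 with higher counts than Kdm5b or Kdm5c, went from 29.1 ± 11.1 to 65.9 ± 3.59 CPM (log2 fold change 1.18, standard error 0.29, edgeR adjusted p = 0.039). Leaving out any 1 library other than DMSO B ended its call (adjusted p of 0.0533 to 0.116), as did offsets for gene length (0.112). Of the nearest relatives of the members, Jmjd1c, a relative of Kdm3a, showed a log2 fold change of 1.09 (edgeR adjusted p = 0.154, standard error 0.43), and Kdm3b one of 0.55 (standard error 1.18, edgeR adjusted p = 0.816). Kdm2b, the relative of Kdm2a, had -0.046 (standard error 0.40, edgeR adjusted p = 0.957). The Y-linked Kdm5d and Uty had 0 counts in every library.

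The enzymes that set the same marks, and other oxygenases, are given by list. In Polycomb repressive complex 2, 2 of 4 tested genes rose and 0 fell (0 also at an unadjusted p under 0.05, in DESeq2 and in limma-trend): Eed, a reader subunit, with a log2 fold change of 1.41 (edgeR adjusted p = 0.00505) and Ezh1, a methyltransferase, with 1.64 (adjusted p = 0.00715). Of 5 H3K36 methyltransferase genes, Nsd3 (log2 fold change 1.46, edgeR adjusted p = 0.00273) and Setd2 (1.43, adjusted p = 0.0446) rose and 0 fell, also at an unadjusted p and in DESeq2. In limma-trend, 1 was called higher and 0 lower. Setd2 (means of 1.1 FPKM with compound 1 and 0.408 FPKM with DMSO) averaged below the minimum level of that tool and was not tested in it. Of 6 H3K9 methyltransferase genes, 0 were called in edgeR, against 1 higher (Ehmt1) and 1 lower (Ehmt2) at an unadjusted p under 0.05 and in DESeq2. Of 5 H3K4 methyltransferase genes, 0 were called in edgeR and 1 (Kmt2d) was higher by these looser rules. In limma-trend, 0 of the H3K9 methyltransferase genes were called. Each of the 5 H3K4 methyltransferase genes averaged below its minimum level of 1 FPKM, so limma-trend could not call them. The erasers that use flavin in place of iron, Kdm1a and Kdm1b, were not called in edgeR or limma-trend. Kdm1a was lower in DESeq2, with 2.30, 0.659 and 1.03 CPM with compound 1 and 14.4, 7.03 and 1.47 CPM with DMSO (log2 fold change -2.52, edgeR adjusted p = 0.122). It overlapped between treatments through DMSO library C and, like Ehmt1, Ehmt2 and Kmt2d, was named after its values were seen. Of 5 TET and AlkB dioxygenase genes, Alkbh5, an eraser of N6-methyladenosine in RNA, rose (log2 fold change 1.33, edgeR adjusted p = 0.00737) and 0 fell, at an unadjusted p and in the other tools too. Of 20 tested genes of other Tudor domain proteins, 0 were called in edgeR and limma-trend, with a median log2 fold change of 0.097. At an unadjusted p under 0.05, Lbr was higher (0.50) and Snd1 lower (-0.40), both named after their values were seen, and DESeq2 called 1 higher.

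Among 12 genes of enzymes that make or use 2-oxoglutarate, succinate and fumarate, 3 fell and 1 rose, with a median log2 fold change of -0.24. At an unadjusted p under 0.05, 6 were lower and 1 higher, DESeq2 called 4 lower and 1 higher, and limma-trend 3 and 1. Sdhb, a subunit of succinate dehydrogenase, had a log2 fold change of -0.76 (edgeR adjusted p = 0.00122), Idh1 -0.66 (adjusted p = 0.0338) and Idh3g -0.37 (adjusted p = 0.0394), whereas Idh3b rose by 0.39 (adjusted p = 0.0371). Of 5 tested genes of HIF subunits and the hydroxylases that control them, 0 were called in edgeR, and Epas1 had 0 counts in every library. The oxygen sensor gene Egln1, named after its values were seen, was higher at an unadjusted p under 0.05, in DESeq2 and in limma-trend (log2 fold change 1.08, edgeR adjusted p = 0.0565). Of 9 hypoxia marker genes listed, 8 were found by symbol and 6 could be tested. Of these 6, 5 rose and 0 fell, the median log2 fold change being 1.94. The same counts were had at an unadjusted p under 0.05, in DESeq2 and in limma-trend. The tested marker that was not called overlapped between treatments (log2 fold change 1.9, edgeR adjusted p = 0.245). Bnip3, a mitophagy receptor, rose by 3.74 on the log2 scale (edgeR adjusted p = 0.000128), the glucose transporter gene Slc2a1 by 1.97 (adjusted p = 0.00143), Ankrd37 by 3.91 (adjusted p = 0.00182) and Ndrg1 by 1.77 (adjusted p = 0.0148). Of the 4 members named above as transcribed more in hypoxia, Kdm3a (2.04) and Kdm4b (1.45) rose, and Kdm6b (1.91) and Kdm4c (0.37) were not called in edgeR. They are not a full list of the members that HIF may act on, and a part of HIF in these changes was not tested.

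**Figure D4:**
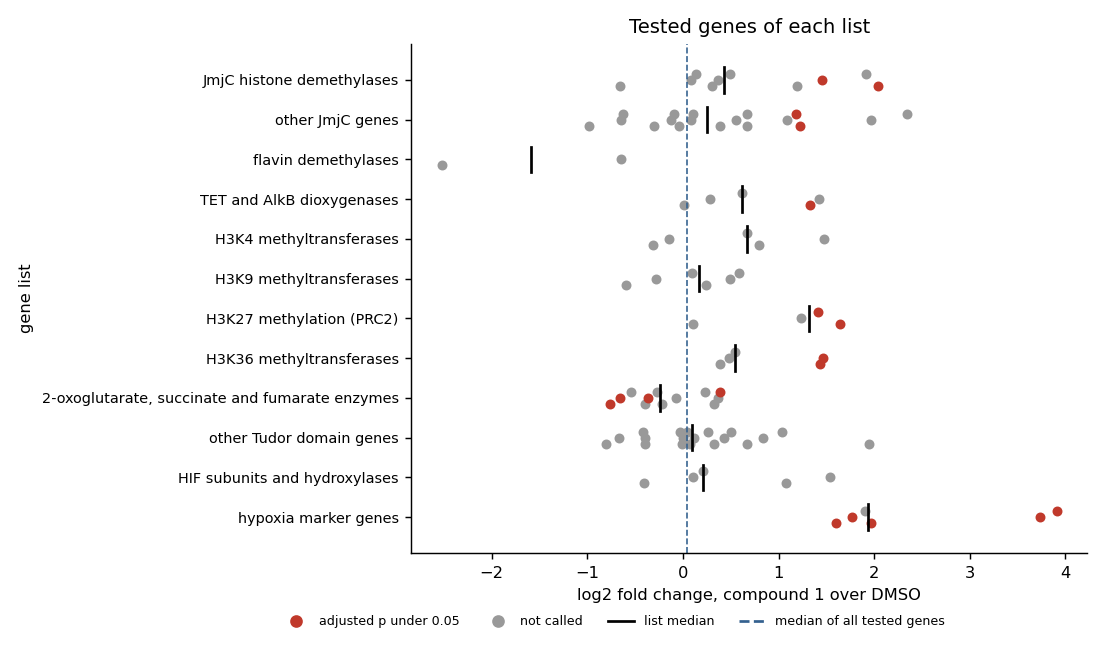
Log2 fold change of compound 1 over DMSO for each tested gene (points) of 12 lists, with red for an adjusted p under 0.05, a black bar at the list median and a dashed line at the median of all tested genes (0.041). The 10 demethylase genes (top) have a median of 0.43, and the 6 hypoxia marker genes (bottom) one of 1.94.

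Log2 fold changes ran with gene length in these libraries. When the tested genes were divided into 5 classes of about equal size by length, the median log2 fold change was -0.24 in class 1, the shortest, and 0.33 in class 5. Kdm4b and Kdm4c lie in class 4 (median 0.19) and the other 8 members in class 5. With offsets that remove this trend, the log2 fold change of Kdm3a was 1.78 (edgeR adjusted p = 0.00686) and that of Kdm4b 1.22 (adjusted p = 0.00923). With all libraries thinned to the lowest total, they were 2.01 and 1.45. For the 10 members, no transcript of another gene shared a run of at least 300 bases at 95% identity, and for Kdm3a and Kdm4b none shared 100 bases.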

How the data were processed

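RNA of 6 αTC1 libraries was prepared by Smart-seq2 and aligned by the authors to GRCm38 with STAR (version 2.7.9a in the submitters' processing notes). The authors counted alignments per Ensembl transcript, irrespective of strand, and summed them per gene; these deposited counts are not normalized. The deposited FPKM values are per kilobase and scaled between libraries; how is not given in the sources used here. Columns were assigned to treatments by name.

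Counts were tested in R 4.3.3 with edgeR 4.0.16: filterByExpr (minimum count 10, minimum total 15), TMM scaling, quasi-likelihood test, Benjamini-Hochberg adjustment over 15082 genes. Standard errors are the absolute log2 fold change over the square root of F. Ratios within libraries were compared by a two-sided exact permutation test. Alternatives were DESeq2 1.42.0, other scalings and filters, limma 3.58.1 on log2 FPKM (pseudocount 1 or 0.1), gene length offsets, thinned counts, a replicate block and each library left out. The fits were tested on simulated data. Copies were searched with blastn 2.17.0 in GENCODE vM21.

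All 10 members are named, and of the other lists the genes with an adjusted p under 0.05, at most 4 a list, with other JmjC genes that passed the low-count filter. Members and lists were chosen with earlier results of these data known. One α cell marker gene is not reported here.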

Additional observations from a re-analysis of the deposited data

How the results depend on the processing

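Kdm3a and Kdm4b were called higher in all 17 alternatives each, with log2 fold changes of 1.46 to 2.25 and of 1.22 to 1.66 and adjusted p-values of up to 0.0237 and 0.0249. DESeq2 called 4 members in place of 2. Kdm2a was called in 3 of 17 alternatives and Kdm6b in 1 of 15, both without a change of sign, and the members past the study filter numbered 2 to 4. With 1 library left out, the other JmjC genes called were 1 to 2, and with gene length offsets, limma-trend without a minimum or the replicate block 1. The replicate block by column letter left 2 members called, and 1232 genes in all in place of 2230. The letters did not pair the libraries (correlations of deviations 0.0027 to 0.025), so they may share only a name: in the study's cell culture work the treatments of a replicate were handled side by side, but no source used here ties the letters to such replicates.

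For 6 of the 8 members that were not called, and for Kdm2b and Kdm3b, the sign of the log2 fold change turned in at least 1 alternative. Log2 fold changes with 1 library left out ran from -0.76 to 1.54 for Kdm4a, -0.01 to 0.93 for Kdm4c, -0.51 to 1.66 for Kdm5b, -0.18 to 1.01 for Kdm5c, -0.39 to 0.81 for Kdm6a, -1.39 to 0.49 for Kdm7a, -0.29 to 0.11 for Kdm2b and -1.39 to 1.05 for Kdm3b. Differences in log2 ratio ran from -0.026 to 2.43 (Kdm4b to Kdm4a), -0.87 to 1.51 (Kdm4c to Kdm4a), 1.15 to 3.03 (Kdm3a to Kdm3b) and -1.41 to 1.04 (Kdm5b to Kdm5c). Length offsets gave -0.11 for Kdm4a and -0.26 for Kdm5b, library size alone 0.16 for Kdm2b and the replicate block -0.46 for Kdm3b; the cause was not tested. Library size alone moved the median of all genes to 0.25, and 67.2% of its calls were higher, against 47.2%. In place of 2230 calls over all genes, DESeq2 made 4276, and fits without DMSO library A, B or C 1253, 1318 and 1265 and without compound 1 library C 1458, with fewer libraries. For Kdm4a, Kdm5b and Kdm6a (means of 0.58 to 1.21 CPM), the coefficient of variation between libraries was 52.0% to 120.0%, against 9.52% to 16.6% from counting error.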
